A study of Trichoderma reesei QM6a with 4 samples.

Results

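Hydrophobins are small secreted fungal proteins that assemble into amphipathic films at the surface of hyphae and spores, where they lower surface tension and make the surface water-repellent. In Trichoderma reesei, HFBI, HFBII and HFB3 belong to this family, and HFBII has been linked to aerial growth and sporulation. Cerato-platanins are another family of small, cysteine-rich secreted proteins, found at the fungal wall and in culture fluid, and their Trichoderma members are known as elicitors of plant defence.

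The genes described here are the hydrophobin genes hfb1, hfb2 and hfb3 and the cerato-platanin gene epl1. They were chosen by the gene name that the array design gives each probe, which is ASTRICH73173 for hfb1, ASTRICH119989 for hfb2, ASTRICH123967 for hfb3 and ASTRICH123955 for epl1. This makes 4 of the 9127 genes and 16 of the 43565 probes on the array, 4 distinct probes per gene. The numbers in these names match the locus tags TRIREDRAFT_73173, TRIREDRAFT_119989, TRIREDRAFT_123967 and TRIREDRAFT_123955 in a reference table of the sequenced strain QM6a. That table gave 3 of these loci a symbol, and the name epl1 is the one under which the remaining locus was selected. Probes are called below by their number in the array design, 2649 to 2652 for hfb1, 810 to 813 for hfb2, 6598 to 6601 for hfb3 and 6574 to 6577 for epl1. Where the probes lie along the transcripts was not analysed here.

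The study compared the mutant strain AT01, which the submitters describe as accumulating much copper, with a wild-type strain, each on 2 one-colour Agilent arrays. Both strains grew as mycelium for 5 days at 25 °C in the rich yeast medium YPD supplied with 1 mM CuSO4, so that wild type and mutant alike had been exposed to copper and no culture without copper was analysed here. The labels do not give the mutation behind AT01 or state whether same-strain arrays had cultures of their own. What the p-values measure is therefore array-to-array spread, possibly of technical origin only. With 2 arrays against 2, an exact permutation test cannot give a two-sided p below 0.333, and the tests below come from limma, which shares the variance over all probes.

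The arrays were dim, and those of AT01 were the brighter. The 75th percentile of the processed signal, the background-subtracted brightness given by the scanner software, was 20.9 and 22.2 for wild type against 41.5 and 39.6 for AT01. A scaled log2 signal below is the log2 of the processed signal minus the log2 of that percentile of its own array. Between the arrays of a strain, the median absolute difference over the probes tested was 0.22 for wild type and 0.18 for AT01 on this scale. Fewer cells expressing a gene and less RNA per cell cannot be told apart in such bulk samples. The list of conidia markers found no gene by symbol, so whether the cultures labelled mycelium also held conidia was not tested.

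Of the 16 probes, 7 were well above background on all 4 arrays: the 4 of hfb1, both hfb3 probes 6600 and 6601, and hfb2 probe 813. A further 6 were well above background on none, and 3 were so on AT01 arrays alone. Over the whole array, 20906 and 20025 probes were well above background in wild type, and 26551 and 26139 in AT01. Tested were the 9 of the 16 probes that met this on both arrays of at least 1 strain. The remaining 7 are described by their signals only. Of the 9 tested, 2 were called higher in AT01 and 3 lower at a Benjamini-Hochberg adjusted p under 0.05, against 32.6% of all 25202 probes tested, 15.2% higher and 17.4% lower. Rises made up 46.6% of all called probes here, 56.5% when scaled over detected probes, 57.9% in the authors' deposited table, and 60.5% and 62.9% with quantile normalization and cyclic loess. The share was lower under other filters, 27.8% with no filter on dim probes and 33.9% with only probes detected on all arrays. The median log2 fold change of the 9 was -0.45, and that of all probes tested was -0.07. The strains did not overlap for 8 of the 9, against 72.1% of all tested probes. Calls of this test with an array left out are not compared, since the spread then comes from the arrays of 1 strain alone. Without AT01 array 1 or 2, hfb1 probe 2650 changed by 1.70 and 1.66 and probe 2652 by 1.46 and 1.39. The hfb3 probe 6600 then changed by -1.91 and -1.37 and probe 6601 by -1.27 and -0.80.

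**Figure D1:**
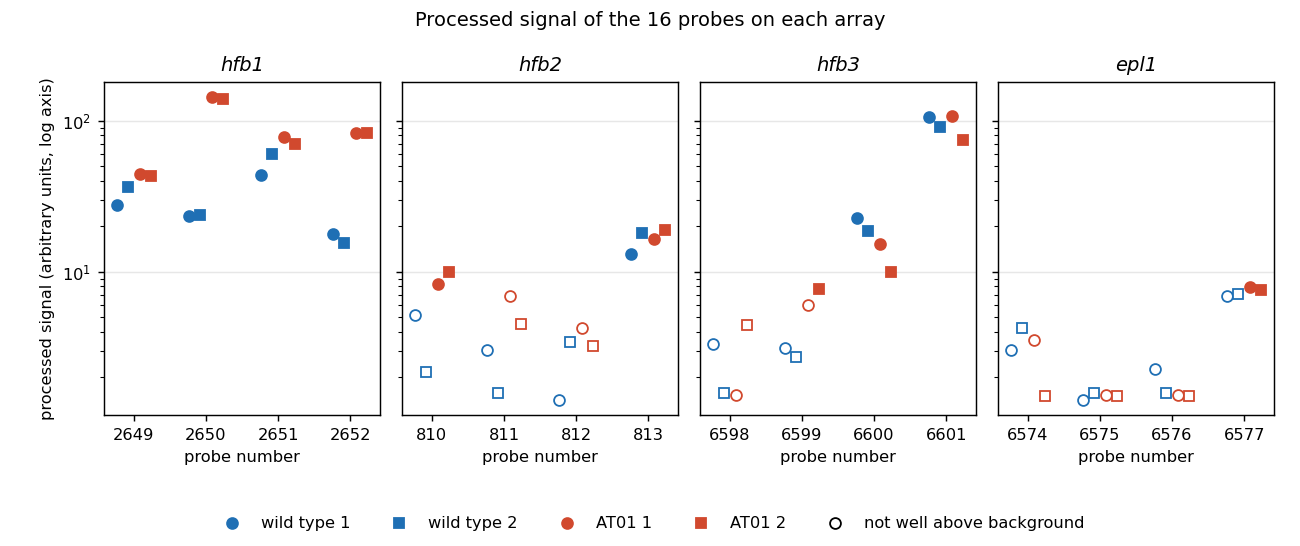
Processed signal (arbitrary units, log axis) of each of the 16 probes on each array, in a panel per gene, with circles for array 1 and squares for array 2 of a strain and open symbols for spots not well above background. Signals are not yet scaled for the brighter AT01 arrays. Probes 2650 and 2652 of hfb1 stand far higher on the AT01 arrays, and the epl1 probes 6575 and 6576 lie near the bottom of the axis on every array.

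The probes of hfb1, which codes for a hydrophobin of the hyphal surface, split into pairs that behaved differently. Probes 2650 and 2652 were higher in AT01, at log2 fold changes of 1.68 and 1.42, or 3.21-fold and 2.68-fold. With normexp background correction, which adds an offset to every signal, these changes were 0.88 and 0.53 and still called (adjusted p = 0.00365 and 0.0111 by limma). Probes 2649 and 2651 were slightly below wild type, and neither was called. All 16 spots of these 4 probes were well above background, with a signal error of 10.1% to 14.2% by the scanner software's own estimate.

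Probe 2650 read 23.4 and 23.6 units of processed signal in wild type and 143.6 and 140.4 units in AT01. After scaling these became 0.17 and 0.09 in wild type and 1.79 and 1.83 in AT01 on the log2 scale. The strains lay far apart and each pair of arrays close together, with SDs of 0.05 and 0.02 (n = 2). The log2 fold change was 1.68 ± 0.14 (SE), with a 95% confidence interval of 1.31 to 2.05 and an adjusted p of 0.0101 by limma.

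Probe 2652 read 17.7 and 15.5 units in wild type and 83.2 and 83.5 units in AT01. Its scaled log2 signal was -0.24 and -0.52 in wild type against 1.0 and 1.08 in AT01, again with no overlap. The log2 fold change was 1.42 ± 0.17 (SE, n = 2 arrays per strain), with an interval of 0.98 to 1.86 and an adjusted p of 0.0127 by limma.

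Probe 2649 read 27.6 and 36.4 units in wild type and 44.7 and 43.0 units in AT01. The AT01 signals were higher before scaling and lower after it, since the arrays differed in brightness by more than that, at 0.41 and 0.72 against 0.11 and 0.12 on the scaled log2 scale. The log2 fold change of -0.45 had an interval of -0.89 to -0.0027, and the probe was not called (adjusted p = 0.105 by limma).

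Probe 2651, which gave 43.8 and 60.2 units in wild type, gave 78.5 and 70.5 units in AT01. Scaled, that is 1.07 and 1.44 against 0.92 and 0.83, so that AT01 lay below wild type on both arrays. Its log2 fold change of -0.38 had an interval of -0.86 to 0.10 and did not pass the test (adjusted p = 0.173 by limma).

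**Figure D2:**
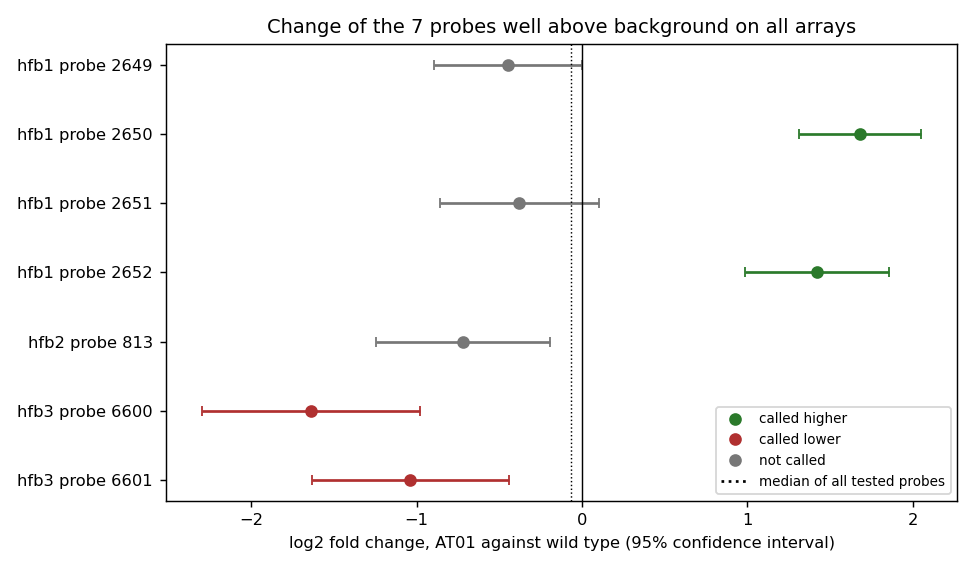
Log2 fold change of AT01 against wild type with its 95% confidence interval for the 7 probes well above background on all 4 arrays, 2 arrays per strain. Probes 2650 and 2652 of hfb1 lie at 1.68 and 1.42, both hfb3 probes lie below 0, and the dotted line marks the median of all tested probes at -0.07.

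Whether the hfb1 probes differed from one another was asked within each array, by subtracting the mean log2 signal of the other hfb1 probes from that of each probe. The brightness of an array cancels in this difference. Probe 2650 stood at -0.25 and -0.46 relative to the others in wild type and at 1.11 and 1.15 in AT01. Probe 2649 moved the other way, from 0.07 and 0.38 to -1.13 and -1.13. For probe 2652 the difference was -0.79 and -1.27 in wild type and 0.06 and 0.15 in AT01, and for probe 2651 it was 0.96 and 1.35 against -0.05 and -0.18. In none of the 4 probes did the strains overlap, but how often that holds for such differences over all probes was not counted.

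The change of this difference was 1.48 ± 0.16 (SE, n = 2 arrays per strain) for probe 2650, which passed the test over all probes (adjusted p = 0.0467 by limma). That call ended in 8 of 15 alternatives, among them quantile normalization and either AT01 array left out, and its adjusted p ranged from 0.0174 to 0.357 by limma while the change stayed between 0.74 and 1.59. The change was -1.36 ± 0.18 for probe 2649, -1.26 ± 0.20 for probe 2651 and 1.14 ± 0.22 for probe 2652. These did not pass, with adjusted p of 0.0539, 0.0671 and 0.0856 by limma, and unadjusted p of 0.00120, 0.00250 and 0.00552. Of all 23482 probes tested in this way 1.45% were called, and 22.9% had an unadjusted p under 0.05. The 4 differences are not independent, since each contains the other probes of the gene.

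**Figure D3:**
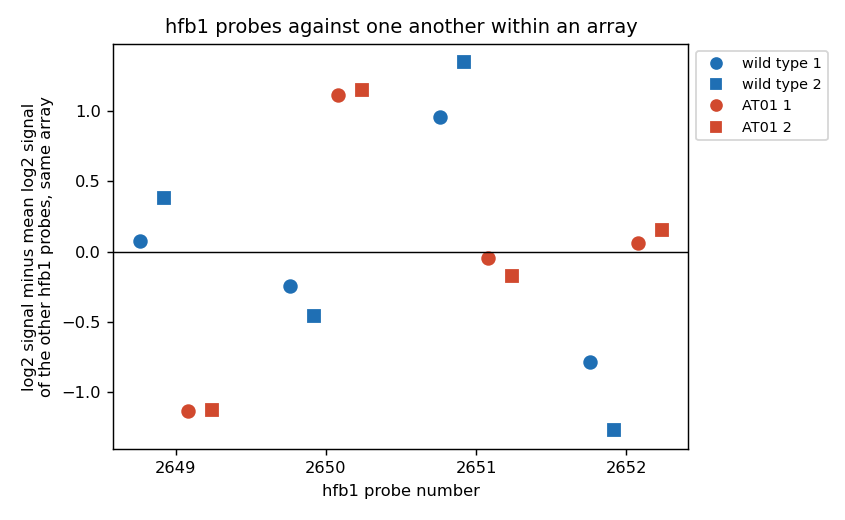
Log2 signal of each hfb1 probe minus the mean log2 signal of the other 3 hfb1 probes on the same array, with circles for array 1 and squares for array 2 of a strain. Probe 2650 lies below 0 on both wild-type arrays and above 1 on both AT01 arrays, and probe 2649 does the reverse.

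Grouped by direction, the mean of probes 2650 and 2652 minus that of probes 2649 and 2651 was -0.78 and -1.29 log2 units in wild type, and 0.88 and 0.98 in AT01. The sign of this difference was thus opposite in the strains on every array. This grouping was made after the values were seen and has no test. On the array surface the rising probes sat in rows 529 and 446 and the others in rows 208 and 466.

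A spread of this kind also occurred in other genes. The log2 fold changes of the hfb1 probes spanned 2.13, against a median span of 0.77 over the 3696 genes with at least 4 tested probes. Of those genes 239, or 6.47%, spanned at least as much, and 246, or 6.66%, had probes called in both directions. Probes with changes of both signs, called or not, were found in 51.6% of them.

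**Figure D4:**
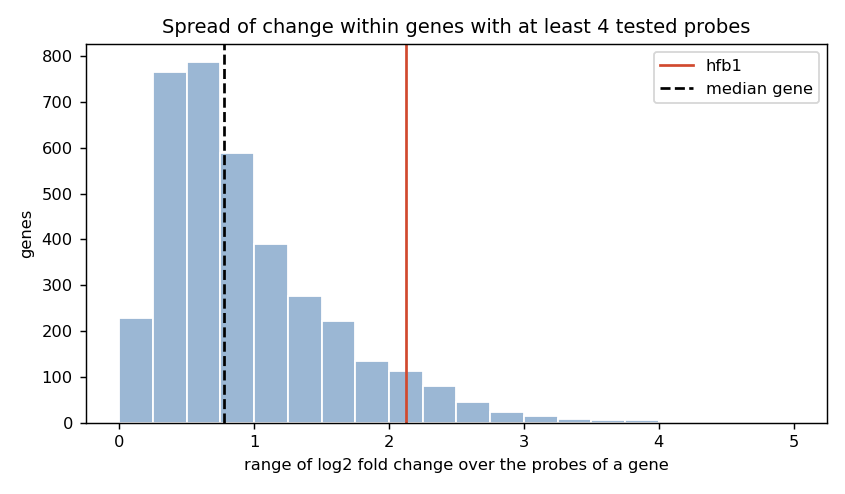
Number of genes by the range of log2 fold change over their probes, for the 3696 genes with at least 4 tested probes. The dashed line is the median gene at 0.77 and the solid line is hfb1 at 2.13, in the upper tail of the distribution.

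Averaged over its 4 probes, hfb1 read 0.35 and 0.43 in wild type and 0.96 and 0.96 in AT01 on the scaled log2 scale. That average changed by 0.57 (adjusted p = 0.0147 by limma over 8016 genes, of which 44.4% were called, 14% higher and 30.4% lower), a value that no single hfb1 probe showed. Falls outnumbered rises over all genes here, but not with quantile normalization (1128 genes higher and 798 lower) or cyclic loess (1186 and 777), and hardly with a shared floor for dim probes (1123 and 1198). Their excess grew with normexp (818 and 4371). It remained with no filter on dim probes (1109 and 3069) and with only probes well above background on all arrays (1061 and 2351). The median change of all genes was -0.23, and -0.02 with quantile normalization, and relative to the former hfb1 lay at 0.80. With the brightest probe in place of the average, which is probe 2651, the change was -0.38 and not called (adjusted p = 0.159 by limma). With the median over the probes it was 0.61 and not called (adjusted p = 0.0531 by limma). The 4-probe average was likewise not called without wild-type array 1 (0.53), AT01 array 1 (0.57) or AT01 array 2 (0.56), with adjusted p of 0.0528, 0.0526 and 0.0623 by limma.

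The hydrophobin gene hfb2 was near the limit of detection. Only probe 813 was well above background on all 4 arrays, with 13.2 and 18.1 units of processed signal in wild type and 16.5 and 19.0 units in AT01. Scaled, these were -0.66 and -0.29 in wild type and -1.33 and -1.06 in AT01, without overlap and lower in AT01. The log2 fold change of -0.72 ± 0.20 (SE, n = 2 arrays per strain) had an interval of -1.24 to -0.19 and did not pass the test (adjusted p = 0.0516 by limma). The probe stayed uncalled in 7 of 10 alternatives that kept all 4 arrays, with an adjusted p of up to 0.0801 by limma, with no filter on dim probes. It was called in the set of probes well above background on all arrays (0.0234), with a variance trend and robust prior (0.0394) and with normexp (0.0467, with a change of -0.26), all by limma. The call so lies near the threshold. With an array left out the change was -0.90 to -0.53.

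Probe 810 of hfb2 was well above background on both AT01 arrays, with 8.32 and 9.93 units, and on neither wild-type array, with 5.18 and 2.18 units. That gives no direction. The lowest scaled log2 signal of a detected spot was -1.56 and -1.50 in wild type but -2.44 and -2.40 in AT01. On that scale probe 810 read -2.01 and -3.35 in wild type against -2.32 and -2.0 in AT01, so the strains overlapped. It was not called (adjusted p = 0.417 by limma), and no fold is given, since its AT01 signal did not exceed the lowest detectable wild-type signal after scaling. Probes 811 and 812 were well above background on no array, with processed signals of 1.57 to 6.90 and 1.42 to 4.24 units. As a gene, hfb2 averaged -2.33 and -2.54 in wild type and -2.38 and -2.45 in AT01, a change of 0.02 with an interval of -0.31 to 0.35 (adjusted p = 0.924 by limma). This average joined 1 measured probe that was lower in AT01 with 3 near background.

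The third hydrophobin gene, hfb3, was lower in AT01 by both of its measured probes. Probe 6601 had 105.4 and 90.4 units of processed signal in wild type and 108.0 and 74.3 units in AT01. These unscaled signals overlapped. Relative to the 75th percentile the probe stood at 2.34 and 2.03 in wild type and at 1.38 and 0.91 in AT01, a log2 fold change of -1.04 ± 0.23 (SE, n = 2 arrays per strain) with an adjusted p of 0.0297 by limma. With all 4 arrays kept, its call ended with quantile normalization (-0.97, adjusted p = 0.0522), cyclic loess (-0.88, adjusted p = 0.0552) and no filter on dim probes (adjusted p = 0.0537), all by limma. With normexp the change was -0.40 (adjusted p = 0.0495 by limma).

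Probe 6600 of hfb3 had 22.58 and 18.55 units in wild type and 15.3 and 10.01 units in AT01, so AT01 was lower even before scaling. On the scaled log2 scale it read 0.11 and -0.26 in wild type against -1.44 and -1.98 in AT01. The log2 fold change was -1.64 ± 0.25 (SE), or 3.12-fold lower, with an interval of -2.30 to -0.98 and an adjusted p of 0.0169 by limma. It stayed called under each alternative with all 4 arrays, at -0.43 with normexp background correction and between -1.65 and -1.55 otherwise.

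Within each array the log2 signal of probe 6600 minus that of probe 6601 was -2.22 and -2.29 in wild type and -2.82 and -2.89 in AT01. The change of that difference was -0.60 ± 0.15 and did not pass the test (adjusted p = 0.123 by limma), with an interval of -1.01 to -0.19. The other hfb3 probes were dim. Probe 6599 had 3.13 and 2.73 units in wild type and 6.06 and 7.71 units in AT01, and was well above background on AT01 array 2 alone. Probe 6598 was well above background on no array, at 1.54 to 4.41 units. With the detected probes alone the gene changed by -1.34 (adjusted p = 0.0176 by limma), against -0.77 over all 4 probes (adjusted p = 0.0297 by limma). The call of the 4-probe average ended in 8 of 17 alternatives, among them quantile normalization (-0.66) and a shared floor for dim probes (-0.66, adjusted p = 0.0502 by limma).

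The cerato-platanin gene epl1 was hardly measured. No probe was well above background in wild type, and probe 6577 alone was so in AT01. Probe 6577 gave 6.86 and 7.11 units of processed signal in wild type and 7.97 and 7.52 units in AT01, so that raw signals differed little and detection favoured AT01. After scaling it read -1.60 and -1.64 in wild type and -2.38 and -2.40 in AT01, and the fit called it lower (adjusted p = 0.0211 by limma). The lowest scaled log2 signal of a spot well above background was -1.56 and -1.50 in wild type but -2.44 and -2.40 in AT01. Probe 6577 lay just below the former limits and just above the latter. Its detection in AT01 alone therefore gives no direction, and no fold is given. Fitting a variance trend with a robust prior ended the call (adjusted p = 0.0699 by limma).

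The other epl1 probes lay at or near the lowest value that the scanner software assigns. Probe 6575 was at that value on all 4 arrays, 1.42 to 1.57 units. Probe 6576 was at it on 3 arrays and read 2.26 on wild-type array 1, and probe 6574 read 3.05 and 4.27 units in wild type and 3.52 and 1.502 in AT01. On the scaled log2 scale the lowest value was -3.88 and -3.82 for wild type but -4.76 and -4.72 for AT01, so that a probe without signal reads lower in AT01. As a gene, epl1 averaged -2.86 and -2.91 in wild type and -3.86 and -4.14 in AT01 and was called lower (adjusted p = 0.00519 by limma), given here without a fold. Holding values below -3.82 at a shared floor takes out this offset for the lowest values, but not for dim signals above the floor. The gene was still called lower there (adjusted p = 0.0171 by limma), as were 14.9% of all genes. It was also called lower under all 12 alternatives that kept all 4 arrays and gave it a value. These reuse the same dim spots, and normexp called 54.5% of all genes lower. Whether epl1 changed is thus not settled by these calls.

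**Figure D5:**
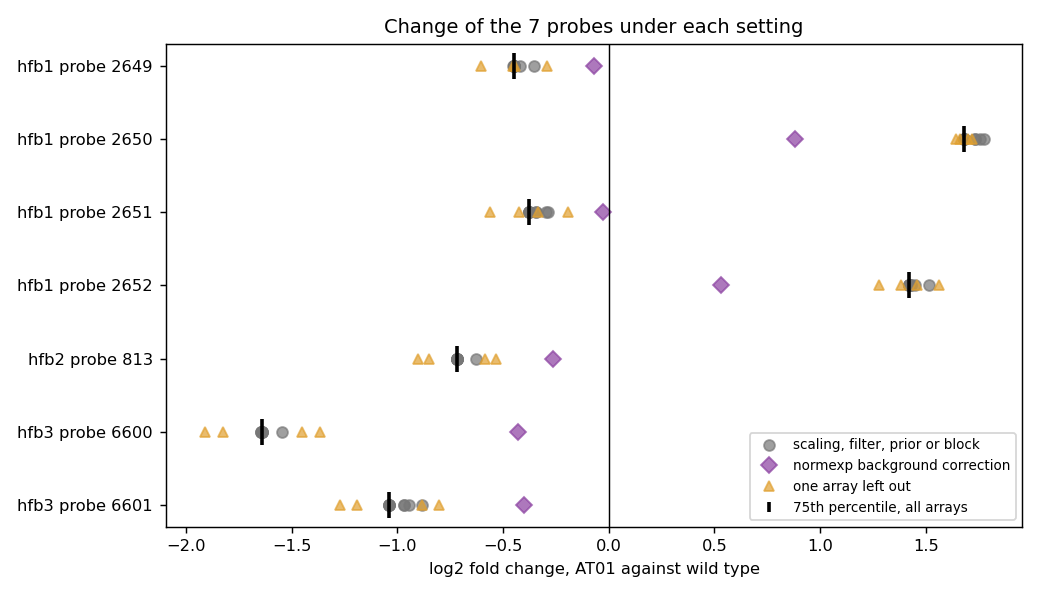
Log2 fold change of AT01 against wild type for the 7 probes well above background on all 4 arrays, under each processing alternative, with a bar for the values reported above. Probes 2650 and 2652 of hfb1 stay above 0 and the hfb3 probes below 0 under every alternative, and normexp background correction, marked by diamonds, gives the values nearest to 0 for all 7.

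In the authors' deposited table, which is normalized on its own scale, hfb1 probe 2650 stood at 5.06 and 4.97 in wild type and 6.74 and 6.76 in AT01, and probe 2649 at 5.30 and 5.59 against 4.99 and 5.0 log2 units. The split of hfb1 was thus also present there. The authors' deposited table held 4 hfb1 probes, 3 of hfb3, 2 of hfb2 and 1 of epl1. How these were selected, and how the table was normalized, is not given in the sources used here.

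The genes with a symbol whose averages over the 4 arrays ran most like each member were named from 213 or 214 tested genes with a symbol. Likeness was the root mean square difference of the scaled log2 values after centring each gene on its mean, so smaller is more alike. For hfb1 these were psb5, a proteasome subunit gene, at 0.04, arg2 at 0.06 and blr1, a blue light receptor gene, at 0.08, against a median of 0.47. For hfb3 they were met2 at 0.05, acl2 at 0.09 and the beta-glucosidase gene cel1a at 0.11. For hfb2 they were rgs1, xdh1 and psa3, at 0.04, 0.05 and 0.05. For epl1 they were nmt1 at 0.10 and the ribosomal protein genes rps28 and rpl38 at 0.12 and 0.13. The medians were 0.26 for hfb2, 0.32 for hfb3 and 0.42 for epl1. Only 1 of 4 epl1 probes was tested and the others lay at or near the lowest value, so likeness to its average says little about the gene. The genes named for hfb1 had changes of 0.51 to 0.58 between the strains, near its own 0.57. That nearness follows from picking them by likeness over the same 4 arrays. The hfb1 average also stands for probes that differed.

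In the order of the reference table hfb3 and epl1 lay in 1 run with 17 loci between them, of which 15 were tested, 3 being called higher and 2 lower. For this and the counts below, 44.4% of all 8016 genes tested were called, 14% higher and 30.4% lower. Within 3 loci of hfb1, 2 of 4 tested loci rose and 1 fell. The rises were the 2 loci after hfb1, TRIREDRAFT_59359 by 1.1 and TRIREDRAFT_47020 by 1.18 on the log2 scale (adjusted p = 0.00537 and 0.00395 by limma), and the fall was TRIREDRAFT_59417, before it, at -0.78 (adjusted p = 0.00822 by limma). Within 3 loci of hfb2, 2 of 4 tested loci rose, TRIREDRAFT_119991 by 1.37 and TRIREDRAFT_74559 by 0.99 (adjusted p = 0.00273 and 0.00654 by limma), and TRIREDRAFT_56149 at 0.26 and TRIREDRAFT_72091 at -0.11 were not called. These loci are named because they were called or lie beside those that were, after their values were seen. Within 3 loci of hfb3, 1 of 6 tested loci was called, TRIREDRAFT_72549 at -0.68, and within 3 loci of epl1, 1 of 4, TRIREDRAFT_111762 at -0.42.

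Other genes of the hyphal wall and of pathways that act on hydrophobin genes in Trichoderma were taken from lists of symbols. No further hydrophobin or cerato-platanin gene was found on the array by symbol. Of 12 tested wall and surface genes, all of them chitinase or N-acetylglucosaminidase genes, 1 was called, chi18-14, at -0.65 (adjusted p = 0.0130 by limma), and its call ended with quantile normalization. The median of that list was -0.27, against -0.23 over all genes, and turned to 0.11 with quantile normalization. Of 16 genes of light response, G protein, protein kinase A and MAP kinase signalling, 3 rose and 5 fell (median -0.30), led by the small GTPase genes rho3 at 1.33 and ras2 at 0.64 among rises, and by gna1, a G protein alpha subunit gene, at -1.0 and gbg1 at -0.77 among falls. With dim probes held at a shared floor 3 rose and 3 fell, and with quantile normalization 3 rose and 2 fell. Of 11 secretory pathway genes 1 was called, the syntaxin gene sso1, at -0.45 (adjusted p = 0.0382 by limma, median of the list 0.01). With quantile normalization sso1 was not called, and the chaperone gene bip1 and the 14-3-3 gene ftt1 were called higher, at 0.79 and 0.61. Of all genes, 14% were called higher and 30.4% lower, against 14.1% and 9.96% with quantile normalization and 14% and 14.9% with the shared floor.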

How the data were processed

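Total RNA of 4 mycelium samples was labelled with Cy3, per the labels' protocols, and the submitters' processing notes name Agilent Feature Extraction 10.5.1.1. Per the file headers, the deposited intensity values are background-subtracted processed signals, and further columns flag detection, saturation and outlying pixels. The authors' deposited value table holds log2 values, as a comparison with the scanner signals showed, with column medians of 4.31, 4.31, 4.31 and 4.31, and its method is not given in the sources used here. Control and outlying spots (13 to 117 per array) were left out. No spot was saturated. Each array's log2 signals were scaled by its 75th percentile, and strains were compared per probe, per gene (mean over probes) and per probe against the other tested probes of its gene, using limma 3.58.1 (lmFit, eBayes) under R 4.3.3. The fits were checked on simulated data. A mean signal was not used for normexp (offset 50), which took the median signal. All arrays share 1 scan time, so no slide block was fitted. Members and lists were chosen with earlier results of these data known. Named were all members and, per list, up to 2 rises and 2 falls among called genes, plus 3 genes with a symbol most like each member. Genes were matched to locus tags by number (9070 of 9127). Alternatives were normexp, quantile normalization, cyclic loess, the percentile over detected probes, a common lower limit, the authors' table, other filters on dim probes, a trended robust prior, a replicate block, each array left out and, for genes, other ways to join probes.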

Additional observations from a re-analysis of the deposited data

How the results depend on the processing

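Of the members' probes, 5 were called, the dim epl1 probe 6577 among them, and 4 to 6 were called under 10 alternatives that kept all 4 arrays. Counts with 1 array left out are not compared, since such a fit leaves 1 array in a strain and calls over the whole array moved with it. Without an array, hfb1 probes 2650 and 2652 stayed between 1.64 and 1.72 and between 1.28 and 1.56. Without the filter on dim probes 12729 probes were called, against 8226. The change of hfb2 probe 810 turned to -0.14 with normexp and to -0.15 without wild-type array 2, and was 1.19 without wild-type array 1. Of the 4 genes 3 were called, epl1 among them, against 44.4% of all genes. With the median over probes 1 was called, which was epl1, against 8.13% of all genes higher and 9.86% lower. With an array left out hfb1 changed by 0.53 to 0.61 and hfb3 by -1.04 to -0.51. The change of hfb2, near 0 and not called, turned to -0.18 with normexp and to -0.72 with the brightest probe, and was called in both. With normexp 54.5% of all genes were called lower and the median change of all genes was -0.16. With the brightest probe 30.7% of all genes were called lower. The change of hfb2 also turned to -0.27 in the authors' table, -0.10 with detected probes, -0.087 without wild-type array 2 and -0.02 without AT01 array 1 (-0.087 to 0.12 with an array left out). That of hfb1 turned to -0.38 with the brightest probe. Gene calls fell from 3557 to 1926 with quantile normalization, 1963 with cyclic loess, 2321 with the common lower limit and 1442 with the median over probes, and to 2308 and 1667 without AT01 array 1 or 2.

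In the test of a probe against the others of its gene, 1 member probe was called, against 2 with normexp, 4 with probes well above background on all arrays, 3 with the other probes restricted to these, and 0 to 6 with an array left out. The count was 0 with quantile normalization, cyclic loess, the authors' table, no filter and a trended prior variance, where limma called 0 of all probes (4980 to 7438 had an unadjusted p under 0.05, with 5 to 8 of the members' probes). All probes called were 341, against 842, 982, 970, 2169 without wild-type array 1, 999 without wild-type array 2, and 0 without either AT01 array (unadjusted p under 0.05 for 3261 and 2621 of all probes and for 4 of the members' in each). The difference of hfb3 probe 6601 turned to -0.35 with no filter. With the replicate block the count of this test was 0 (282 of all probes called, 8 of the members' with an unadjusted p under 0.05), and the block changed no other call of the members. The replicate numbers did not pair the arrays (correlation of deviations -0.05 over 25102 probes). The cause of these changes was not tested. Dim signals limit epl1 and hfb2, for which 1 tested probe or 2 carry the result.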
